A study of Mus musculus with 12 samples.

Results

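Acutely dissociated, unsorted dorsal root ganglia (DRG) were compared with intact DRG across the transcriptome. The comparison used 8 of the 12 libraries in the series, 4 of dissociated and 4 of intact DRG, and the 4 MACS-sorted libraries served only to check libraries and to give one more level for a few genes. Of 24490 rows in the expression table, 1280 on the sex chromosomes were left out because the groups differed in sex, and 11974 of the other 23210 had a mean of at least 1 FPKM and were tested.

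All mice were labelled as adult C57Bl/6, and the study's methods name male mice. The ganglia of 1 mouse made up an intact sample and were snap frozen after dissection. Ganglia of 2 mice were pooled for each dissociated sample, digested for 30 min at 37 °C in dispase (3 mg/ml), collagenase (0.1%) and DNase (200 U/ml), triturated, filtered at 40 µm and spun at 150 G for 5 min. Levels are FPKM, fragments mapped per kilobase of transcript, scaled to the mapped total of a library, from polyA-selected RNA. The groups thus differ in digestion, filtering, centrifugation and handling time together, and in the number of mice per sample.

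A DRG holds the cell bodies of sensory neurons, each wrapped in satellite glia, among Schwann cells, blood vessels, macrophages and connective tissue, with meninges along the roots. Dissociation cuts the matrix with enzymes and severs the axons. Immediate early genes encode transcription factors and regulators whose induction needs no new protein and follows a stimulus within minutes, and heat shock genes encode chaperones that bind unfolded proteins.

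Some libraries stood apart in genes chosen to check for differences other than preparation. Xist, the noncoding RNA of the inactive X chromosome, was at 16.1 to 24.4 FPKM in the intact libraries and at most 0.0178 FPKM in the dissociated libraries. The Y-linked Ddx3y averaged 13.7 FPKM in dissociated DRG and was at most 0.0227 FPKM in any intact library, and Eif2s3y, Kdm5d and Uty had the same pattern. The intact libraries therefore went against the stated sex, and sex and preparation cannot be told apart in any result here. Wdfy1 was at 11.97 to 12.8 FPKM in intact and 2.70 to 3.12 FPKM in dissociated libraries, and Nnt, a mitochondrial transhydrogenase gene, at 6.97 to 8.12 and 3.83 to 4.49 FPKM. Whether the mice of the groups differed in genetic background was not tested. Among the MACS-sorted libraries replicate 3 had Wdfy1 at 2.82 FPKM, within the range of the dissociated libraries.

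**Figure D1:**
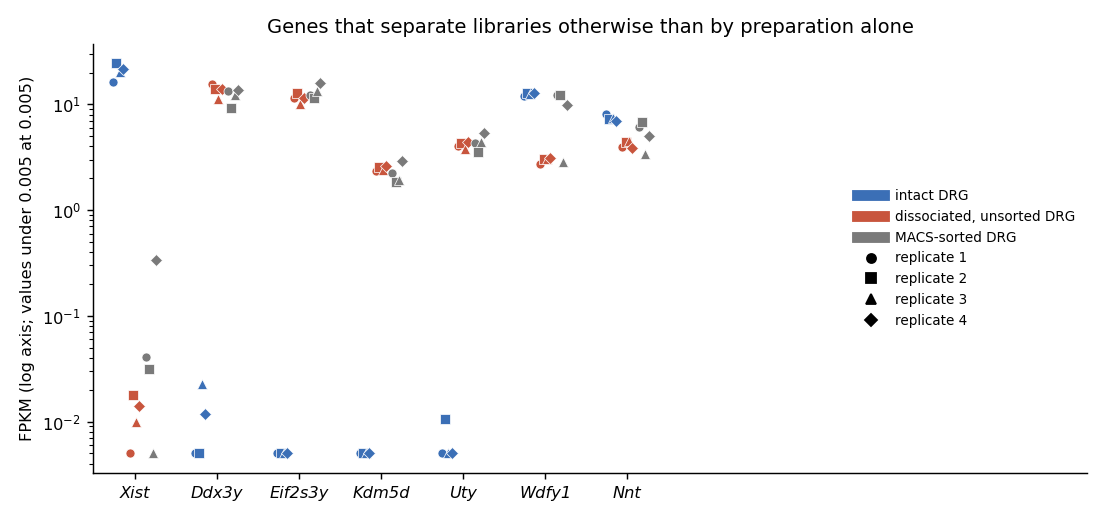
FPKM of 7 genes used to check the libraries in each of the 12 libraries, on a log axis, with colour for the group and marker shape for the replicate number. Values of 0 are drawn at the bottom of the axis. Xist was above 1 FPKM in the intact libraries only and the 4 Y-linked genes in dissociated and MACS-sorted libraries only, and Wdfy1 was lowest in dissociated libraries and MACS-sorted replicate 3.

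Intact replicate 1 also stood apart. The skeletal muscle list summed to 4169, 104, 30.0 and 35.5 FPKM in intact replicates 1 to 4 and to 5.62 to 16.6 FPKM in the dissociated libraries. Dissociated replicates 1 and 2 differed by a median of 0.0677 on the log2 scale over tested rows, against 0.101 to 0.151 for the other pairs of dissociated libraries. The depth of the 8 libraries, estimated from their lowest values, was 0.966 to 1.19 times that of intact replicate 1. Rows above 0 numbered 16004 ± 27.6 in intact and 15588 ± 124 in dissociated DRG (SD, n = 4), and the groups did not overlap (exact permutation test, two-sided p = 0.0286, the smallest that 4 against 4 allow).

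A gene was called when its adjusted p (limma, two-sided) was under 0.05, the log2 ratio of mean FPKM was beyond 0.5 in either direction and the higher group averaged above 5 FPKM. In dissociated DRG 519 genes, 4.33% of those tested, were called higher and 332, 2.77%, were called lower, 7.11% in all. By the adjusted p alone, 14.9% were higher and 7.96% lower, and the groups did not overlap for 20.9% with dissociated DRG higher and 12% with it lower. Without intact replicate 1, 382 genes (3.22% of 11878) were called higher and 303 (2.55%) lower, among them 342 and 245 of the genes called with all 8 libraries. Calls with more than a 2-fold difference in mean FPKM numbered 40 higher and 120 lower. The share of calls that were higher was 61.0%, but 49.6% after quantile normalization and 44.1% after scaling each library to the same FPKM sum.

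The 10 largest rises among calls without overlap that also held without intact replicate 1 included Fosb, Fos, Egr1, Tmem254b, Socs3, Junb, Zfp36, Ier2 and Cyr61, and 7 of these belong to the early response lists described next. Tmem254b has 3 rows of near-identical copies and is uncertain. The 10 largest falls were in Thoc1, Thyn1, Tnni2, Tnnc2, Mylpf, Cfd, Acta1, Ptgds, Meg3 and H19. Thoc1 was listed at 0 in all 4 dissociated libraries and Thyn1 in 3 of them, and as Cufflinks can list 0 where an estimate fails, nothing further is read from either. Tnni2, Tnnc2, Mylpf and Acta1 are skeletal muscle genes.

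Genes of the AP-1 family, whose Fos and Jun proteins pair to bind DNA, had the largest rises of all lists. Of 8 tested members 4 were called higher (Fosb, Fos, Junb and Jun) and none lower, with a median log2-fold change of 1.73, against 4.33% called higher and a median of 0.015 over all tested genes. Fos (chr12:85473901-85477270) was at 4.19, 2.07, 2.67 and 3.43 FPKM in intact and 55.6, 57.7, 191 and 314 FPKM in dissociated replicates 1 to 4. Every dissociated library was far above every intact one, and dissociated replicates 3 and 4 stood above replicates 1 and 2. Mean Fos was 3.09 ± 0.919 FPKM in intact and 155 ± 124 FPKM in dissociated DRG (SD, n = 4), with an SE of 0.542 around a log2-fold change of 5.25 (adjusted p = 0.00136). Fosb (chr7:19302696-19310045), a close relative of Fos, was at 0.334, 0.296, 0.365 and 0.355 FPKM in intact and 8.93, 8.32, 35.8 and 71.1 FPKM in dissociated replicates 1 to 4 (log2-fold change 5.59, SE 0.625, adjusted p = 0.00168). Its groups were again apart, with the same order of dissociated libraries.

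Junb, whose protein pairs with Fos and can restrain c-Jun, was at 7.25 ± 1.56 FPKM in intact and 54.1 ± 30.3 FPKM in dissociated DRG (SD, n = 4), and Jun, the core partner in AP-1, at 25.9 ± 1.36 FPKM in intact and 95.8 ± 43.0 FPKM in dissociated DRG (SD, n = 4). Atf3, an AP-1 related gene known for its induction in injured sensory neurons and named here after its values were seen, averaged 2.97 and 12.7 FPKM in intact and dissociated DRG without overlap but missed the threshold (adjusted p = 0.0548). It was called without intact replicate 1, as was Jund, so that 6 of the list were. Without dissociated replicates 1 and 2 the count was 5, and without replicates 3 and 4 it was 4.

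The promoters of the 3 AP-1 genes with the largest rise are printed because upstream elements are where their known regulators bind. Each is the 250 bases before the RefSeq start on the strand of the gene (GRCm38.p6): Fosb chr7:19310046-19310295, minus strand, Fos chr12:85473640-85473889, plus strand, and Junb chr8:84978749-84978998, minus strand. Capitals mark TGACG on either strand, the core shared with the cyclic AMP response element, and TATAAA on the gene's strand.
Fosb: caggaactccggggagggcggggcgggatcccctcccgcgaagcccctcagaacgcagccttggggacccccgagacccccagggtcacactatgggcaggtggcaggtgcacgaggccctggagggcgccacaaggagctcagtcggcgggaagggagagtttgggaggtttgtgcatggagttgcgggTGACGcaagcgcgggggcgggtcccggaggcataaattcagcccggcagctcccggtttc
Fos: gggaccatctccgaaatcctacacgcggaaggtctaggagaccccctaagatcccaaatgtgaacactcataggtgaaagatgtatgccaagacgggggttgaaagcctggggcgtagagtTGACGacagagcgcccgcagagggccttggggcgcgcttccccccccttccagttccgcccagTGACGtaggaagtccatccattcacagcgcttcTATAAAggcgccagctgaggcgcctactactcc
Junb: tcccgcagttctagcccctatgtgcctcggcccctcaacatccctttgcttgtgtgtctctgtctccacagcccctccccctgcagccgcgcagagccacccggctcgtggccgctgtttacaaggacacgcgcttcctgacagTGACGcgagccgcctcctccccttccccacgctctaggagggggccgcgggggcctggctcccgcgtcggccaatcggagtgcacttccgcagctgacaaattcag
TGACG occurred once in Fosb and Junb and at 2 places in Fos, which also held TATAAA. Of 11635 promoters of tested genes 26.3% held TGACG and 3.67% TATAAA. No match to the full cyclic AMP response element TGACGTCA, the AP-1 site (TGACTCA or TGAGTCA) or the CArG box was in these 3 windows, at 2.61%, 3.15% and 1.16% of all promoters. TGACG was in the promoters of 3 of the 4 called AP-1 genes, Jun having none, of 5 of the 5 called genes of the next list that had one and of 2 of 4 in the list of feedback regulators. A match is a description of letters, and binding was not measured.

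Other immediate early factors included 7 genes called higher and 0 lower of 22 tested, with a median log2-fold change of 0.58. Egr1, a zinc finger factor induced by growth factors and activity, was at 6.22, 3.87, 4.02 and 4.84 FPKM in intact and 23.0, 23.3, 81.0 and 128 FPKM in dissociated replicates 1 to 4 (log2-fold change 3.35, SE 0.531, adjusted p = 0.00482). All 4 dissociated libraries exceeded the intact ones, with replicates 3 and 4 highest. Ier2 rose 6.36-fold in mean FPKM, the antiproliferative gene Btg2 6.19-fold, the orphan nuclear receptor gene Nr4a1 2.88-fold and the vascular zinc finger gene Klf2 2.53-fold. Well-known members that were not called, named after their values were seen, were Egr3 and Arc, which passed the adjusted p below 5 FPKM, and Egr2, Myc and Srf, with adjusted p of 0.178 to 0.539. The count was 4 without intact replicate 4, without dissociated replicate 3 or 4, or without both of the latter, and 10 without dissociated replicates 1 and 2.

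Feedback regulators, which dampen the signals that induce early genes, had 4 called higher and 0 lower of 27 tested, with a median of 0.39. Socs3, an inhibitor of cytokine receptor signalling (chr11:117966087-117969366), was at 4.02, 3.63, 2.78 and 2.66 FPKM in intact and 11.2, 12.4, 38.6 and 56.1 FPKM in dissociated replicates 1 to 4 (log2-fold change 2.83, SE 0.489, adjusted p = 0.00656). Zfp36, which encodes tristetraprolin, a destabiliser of cytokine and early gene mRNAs, was at 6.39, 4.36, 4.64 and 5.26 FPKM in intact and 15.9, 14.4, 62.0 and 95.2 FPKM in dissociated replicates 1 to 4. Both genes were higher in every dissociated than in every intact library, and highest in replicates 3 and 4. The MAP kinase phosphatase gene Dusp1 rose 3.08-fold and Ppp1r15a, whose protein reverses eIF2alpha phosphorylation, 1.68-fold in mean FPKM, also without overlap. Cyr61, a matricellular gene outside these lists, was at 4.37, 3.16, 3.48 and 4.16 FPKM in intact and 11.5, 12.3, 26.9 and 43.0 FPKM in dissociated replicates 1 to 4 (log2-fold change 2.39, SE 0.387, adjusted p = 0.00523).

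**Figure D2:**
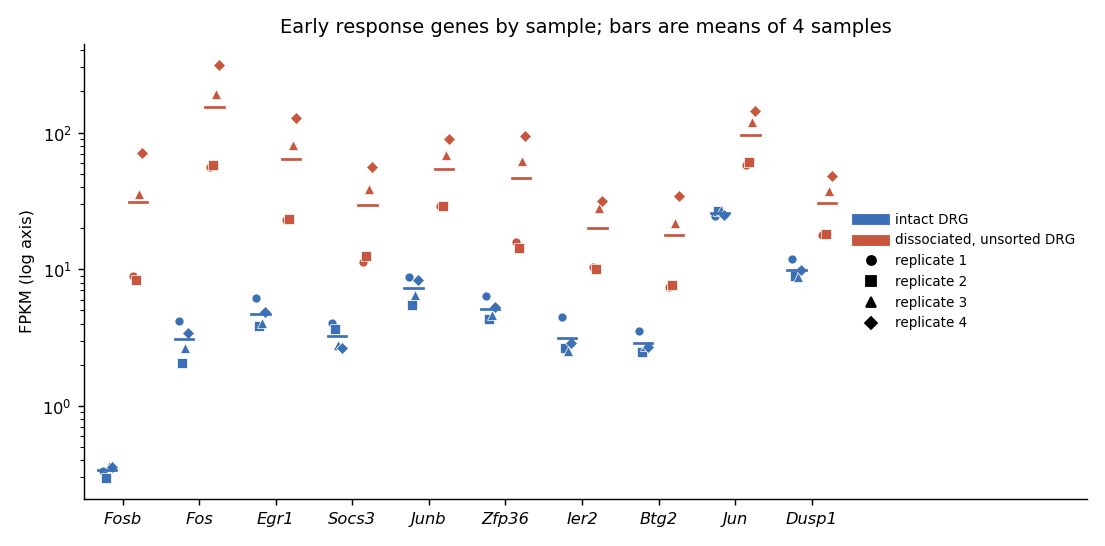
FPKM of early response genes in each intact and dissociated library, on a log axis, with marker shape for the replicate number and a bar at the mean of 4 libraries. Dissociated libraries lie above intact ones, with replicates 3 and 4 the highest for Fos (2.07 to 4.19 FPKM in intact and 55.6 to 314 FPKM in dissociated DRG).

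The AP-1 list summed to 84.3, 68.8, 72.7 and 77.2 FPKM in intact, 199, 203, 485 and 699 FPKM in dissociated and 213, 170.2, 229.9 and 243 FPKM in MACS-sorted replicates 1 to 4. The sorted libraries thus lay between intact DRG and dissociated replicates 3 and 4, near dissociated replicates 1 and 2, and no test was run on them. Fos was at 18.7 to 52.5 FPKM after sorting. What differed between dissociated replicates 1 and 2 and replicates 3 and 4 is not given in the sources used here.

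Heat shock and chaperone genes moved less, with 3 called higher and 0 lower of 20 tested and a median of 0.16. Hspa1b, an inducible Hsp70 gene (chr17:34956429-34959238), was at 2.90, 2.33, 3.33 and 3.14 FPKM in intact and 4.79, 4.73, 6.996 and 7.04 FPKM in dissociated replicates 1 to 4 (log2-fold change 0.97, SE 0.170, adjusted p = 0.00682). Its groups did not overlap, but its near-identical copy Hspa1a could share reads with it, so the pair is uncertain. Bag3, an Hsp70 cochaperone of selective autophagy, was at 52.1, 60.6, 61.0 and 62.8 FPKM in intact and 97.5, 94.9, 107 and 98.4 FPKM in dissociated replicates 1 to 4 (log2-fold change 0.75, SE 0.0785, adjusted p = 0.00146), with groups apart and little spread in either. Hspb1, the small heat shock protein gene of sensory neurons, rose 1.51-fold. Of chaperones named after their values were seen, Hsp90ab1 averaged 683 and 934 FPKM and passed the adjusted p (limma, 0.00339) but not the fold, and Hspa8 averaged 194 and 205 FPKM (adjusted p = 0.435). The count was the same without intact replicate 1, and after scaling to the same FPKM sum 1 member was called lower.

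The Hspa1b promoter (chr17:34959239-34959488, minus strand, 250 bases before the RefSeq start) is printed because it carries the heat shock element letters GAANNTTC, shown in capitals.
Hspa1b: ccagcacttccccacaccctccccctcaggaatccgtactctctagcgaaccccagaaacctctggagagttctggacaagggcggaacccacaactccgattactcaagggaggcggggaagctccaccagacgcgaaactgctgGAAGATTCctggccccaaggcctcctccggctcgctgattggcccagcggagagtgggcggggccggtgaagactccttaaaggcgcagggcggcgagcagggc
The promoters of Hspa1b and Hspb1 held the element, that of Bag3 did not, and 4.95% of all promoters did.

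Other stress programs held few calls. None of 16 tested genes of the unfolded protein and integrated stress response was called (median 0.03), and the endoplasmic reticulum chaperone genes Hsp90b1 and Hspa5 averaged 117 and 117 FPKM and 103 and 112 FPKM. Without intact replicate 1, 1 of them was called higher. None of 10 oxidative stress and metallothionein genes, 10 p53 response genes or 8 cytokine and inflammatory genes was called, with medians of 0.17, -0.24 and -0.15. The metallothionein gene Mt1 was at 90.5, 69.0, 95.0 and 63.0 FPKM in intact and 70.4, 69.7, 127 and 149 FPKM in dissociated replicates 1 to 4, with overlap of the groups. In the cytokine list, Il1b, Il6 and Tnf were among the members below 1 FPKM in mean. Slc2a1, the glucose transporter GLUT1, was the 1 call of 9 hypoxia genes (median -0.08) and was at 15.1 ± 1.22 FPKM in intact and 22.5 ± 0.718 FPKM in dissociated DRG (SD, n = 4). The sulphotransferase gene Sult1a1 was the 1 call of 7 glucocorticoid response genes (median -0.20), lower in dissociated DRG, and its call was lost in 14 alternatives. None of 10 tested nerve injury genes was called (median 0.01), and Gap43, the growth cone protein gene, averaged 117 and 118 FPKM (adjusted p = 0.919). Atf3, described above and also in this list, had its largest log2-fold change, 1.68, and was called higher without intact replicate 1. In these lists without a call, the limma p before adjustment was under 0.05 for 3 unfolded protein, 5 oxidative stress, 4 p53, 3 cytokine and 3 nerve injury genes. After adjustment it was under 0.05 for 2 unfolded protein, 1 oxidative stress, 1 p53 and 1 nerve injury gene in the higher direction. In the lower direction it was under 0.05 for 1 unfolded protein and 1 p53 gene. The share of all tested genes with a p under 0.05 before adjustment was not counted, but 14.9% were higher and 7.96% lower by the adjusted p alone. Counts before adjustment, here and for the lists below, are therefore not read as changes.

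Cell populations were followed through marker lists. Over all tested genes 4.33% were called higher and 2.77% lower, with a median log2-fold change of 0.015. In a bulk library, fewer cells of a type and less RNA per cell cannot be told apart.

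**Figure D3:**
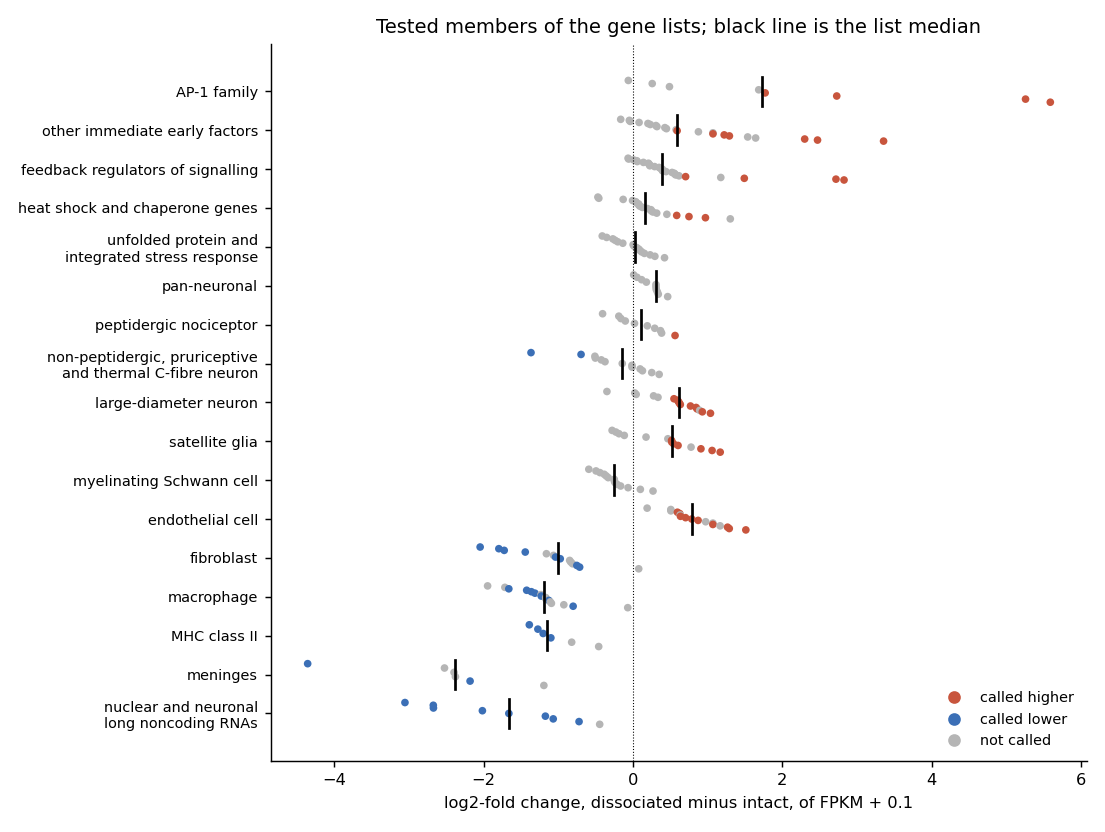
Log2-fold change (dissociated minus intact) of each tested member of the gene lists, 1 dot per gene coloured by call, with a black line at the median of the list. AP-1, other immediate early and feedback genes lie mostly above 0, with medians of 1.73, 0.58 and 0.39. So do endothelial, satellite glial and large-diameter neuron genes, with medians of 0.79, 0.52 and 0.62. Fibroblast, macrophage, meningeal and long noncoding RNA genes lie mostly below 0, with medians of -1.01, -1.20, -2.39 and -1.66.

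Pan-neuronal genes had folds above 0 in all 10 members, none called, with a median of 0.31 and a limma p before adjustment under 0.05 for 7. By the adjusted p alone 4 of the 10 were higher, against 14.9% of all tested genes. The groups did not overlap for 6, against 20.9% of all tested genes. Uchl1, a neuronal ubiquitin hydrolase gene, averaged 1262 and 1559 FPKM and Stmn2, which regulates microtubules in axons, 705 and 706 FPKM. Large-diameter neuron genes held 10 called higher and 0 lower of 16, with a median of 0.62. Nefh, the heavy neurofilament gene of myelinated neurons (chr11:4938756-4948064), was at 221, 397, 436 and 387 FPKM in intact and 619, 609.7, 745 and 690.5 FPKM in dissociated replicates 1 to 4 (log2-fold change 0.93, SE 0.198, adjusted p = 0.0132). Intact replicate 1 was the lowest intact library, and without it the log2-fold change was 0.71. The medium neurofilament gene Nefm rose 1.76-fold in mean FPKM, the potassium channel gene Kcnc1 1.80-fold, the transcription factor gene Etv1 1.71-fold and the scaffold gene Whrn 2.07-fold. Without intact replicate 1 the count stayed at 10, without dissociated replicates 1 and 2 it was 4 and without replicates 3 and 4 it was 2.

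Nociceptor genes did not share a direction. Of 10 peptidergic genes 1 was called higher, and the list median was 0.11. Calca, the gene of the neuropeptide CGRP, named after its values were seen, was at 1815, 943, 941 and 1022 FPKM in intact and 1066, 1056, 933 and 1003 FPKM in dissociated replicates 1 to 4, and the groups overlapped. Of 13 genes of non-peptidergic, pruriceptive and thermal C-fibre neurons 2 were called lower, Nppb and Mrgprb4, with a median of -0.14. Nppb, an itch neuropeptide gene, was at 45.9, 20.2, 17.3 and 20.3 FPKM in intact and 8.77, 10.97, 7.04 and 10.7 FPKM in dissociated replicates 1 to 4 (log2-fold change -1.36, SE 0.290, adjusted p = 0.0130). The groups did not overlap, intact replicate 1 was the highest, and without it the log2-fold change was -1.05. Mrgprb4, a receptor gene of neurons that respond to stroking, was at 17.8 ± 1.68 FPKM in intact and 10.94 ± 1.13 FPKM in dissociated DRG (SD, n = 4) (limma, adjusted p = 0.00334). Without intact replicate 1, 3 of this list were called lower.

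Of 14 satellite glia genes 7 were called higher and 0 lower, with a median of 0.52. Folds were above 0 for 10 and below 0 for 4. The list summed to 2024 to 2599 FPKM in intact and 2555 to 3146 FPKM in dissociated DRG, so the groups overlapped. Ednrb, the endothelin B receptor gene (chr14:103814615-103844476), was at 20.1, 24.1, 23.9 and 21.0 FPKM in intact and 58.7, 55.0, 41.1 and 47.3 FPKM in dissociated replicates 1 to 4 (log2-fold change 1.17, SE 0.1203, adjusted p = 0.00136). Kcnj10, the potassium channel gene Kir4.1 that serves potassium clearance around neurons, was at 9.61, 11.02, 9.10 and 9.22 FPKM in intact and 23.4, 21.8, 17.3 and 19.3 FPKM in dissociated replicates 1 to 4 (log2-fold change 1.06, SE 0.108, adjusted p = 0.00136). Both were higher in every dissociated than in every intact library. Ptprz1, Mmd2 and Ttyh1 rose 1.87-fold, 1.51-fold and 1.47-fold in mean FPKM. The count was 8 without intact replicate 1, 4 without dissociated replicate 1 and 3 without dissociated replicates 1 and 2.

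No gene of 14 myelinating Schwann cell genes was called, with a median of -0.25, and 2 were called lower after quantile normalization. The limma p before adjustment was under 0.05 for 3 of them. Mbp, the myelin basic protein gene, was at 1321, 610.4, 679 and 551 FPKM in intact and 507, 498, 396 and 586 FPKM in dissociated replicates 1 to 4, and the groups overlapped. In the list of Schwann lineage and non-myelinating cells, Sox2, Foxd3 and the neurotrophin receptor gene Ngfr were called higher of 9, at 1.78-fold, 1.54-fold and 1.499-fold, with a median of 0.16. None of them was called without dissociated replicates 1 and 2 or without replicates 3 and 4. 

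Endothelial genes were higher. Of 17 tested, 10 were called higher and 0 lower, all had folds above 0, and the median was 0.79. Flt1, the VEGF receptor 1 gene (chr5:147562196-147725988), was at 1.82, 2.38, 2.30 and 2.17 FPKM in intact and 6.93, 6.75, 5.81 and 5.91 FPKM in dissociated replicates 1 to 4 (log2-fold change 1.51, SE 0.109, adjusted p = 0.000270). Cldn5, a tight junction gene, rose 2.41-fold in mean FPKM, the receptor gene Tie1 2.50-fold, the adhesion gene Esam 2.12-fold and the sialomucin gene Emcn 1.84-fold. The groups were apart in each of these 5. The list summed to 79.1 to 95.1 FPKM in intact and 128 to 161 FPKM in dissociated DRG. The count was 11 without intact replicate 1 and 4 without dissociated replicates 1 and 2. In the pericyte and vascular smooth muscle list, Acta2, smooth muscle actin, was called higher at 4.56 and 7.89 FPKM and Vtn, vitronectin, lower at 16.1 and 5.56 FPKM in mean, of 10 tested (median 0.06). 

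Fibroblast genes were lower. Of 14 tested 8 were called lower and 0 higher, with a median of -1.01. Dcn, the collagen-binding proteoglycan gene decorin (chr10:97479500-97518162), was at 518, 244, 215 and 239.9 FPKM in intact and 118, 115, 52.5 and 76.1 FPKM in dissociated replicates 1 to 4 (log2-fold change -1.72, SE 0.332, adjusted p = 0.00927). Intact replicate 1 was the highest library, dissociated replicates 3 and 4 were the lowest, and without intact replicate 1 the log2-fold change was -1.44. Apod, the lipid carrier gene, was at 396 ± 169.8 FPKM in intact and 94.5 ± 30.0 FPKM in dissociated DRG (SD, n = 4), and Lum, Clec3b and Col1a1, matrix genes, fell to between 0.273 and 0.499 of their intact means. The count was 8 without intact replicate 1, 5 without intact replicate 3, 4 without dissociated replicate 3 or 4 and 0 without both. Fn1, fibronectin, was the 1 call, lower, of 12 basement membrane genes (median 0.18), at 18.9 ± 2.68 FPKM in intact and 7.81 ± 3.37 FPKM in dissociated DRG (SD, n = 4). Of 5 tested perineurial genes (median -0.33), Lypd2 and the tight junction gene Cldn1 were called lower, at 9.17 and 2.70 FPKM and 8.95 and 3.86 FPKM in mean, and Slc2a1, already described, higher. 

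Meningeal genes had the lowest median of the cell lists other than muscle, at -2.39. All 6 tested had an adjusted p under 0.05 in the lower direction, and 2 of them reached the level for a call. Ptgds, the prostaglandin D synthase gene of meninges and glia (chr2:25466712-25469749), was at 605, 368, 543 and 564 FPKM in intact and 113, 116, 4.51 and 6.33 FPKM in dissociated replicates 1 to 4 (log2-fold change -4.35, SE 1.05, adjusted p = 0.01997). Every dissociated library was below every intact library, and replicates 3 and 4 were far below replicates 1 and 2. Crabp2, a retinoic acid binding protein gene, was at 9.90 ± 4.42 FPKM in intact and 2.35 ± 1.57 FPKM in dissociated DRG (SD, n = 4). The count was 1 without dissociated replicate 4, or without replicates 3 and 4, and the list summed to 641, 387, 567 and 588 FPKM in intact and 121, 125, 7.58 and 9.19 FPKM in dissociated replicates 1 to 4.

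Of 16 tested macrophage genes 7 were called lower and 0 higher, all had folds below 0, and the median was -1.20 (-0.96 without intact replicate 1). C1qa, a chain of complement C1q (chr4:136895916-136898844), was at 21.9, 9.64, 10.6 and 9.77 FPKM in intact and 6.28, 4.56, 2.22 and 3.18 FPKM in dissociated replicates 1 to 4 (log2-fold change -1.66, SE 0.350, adjusted p = 0.0128). The groups did not overlap, intact replicate 1 was the highest and dissociated replicates 3 and 4 the lowest. C1qb, C1qc, the adaptor gene Tyrobp and the lysozyme gene Lyz2 fell to between 0.365 and 0.418 of their intact means. The count was 6 of 15 tested without intact replicate 1, 3 without intact replicate 4 or dissociated replicate 3 or 4, and 0 without both dissociated replicates 3 and 4.

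Of 6 MHC class II genes, which serve peptide presentation to helper T cells, 4 were called lower (H2-Aa, H2-Ab1, H2-Eb1 and Cd74), with a median of -1.15. H2-Aa was at 60.9, 23.2, 25.7 and 26.0 FPKM in intact and 15.5, 17.1, 7.84 and 9.48 FPKM in dissociated replicates 1 to 4 (log2-fold change -1.39, SE 0.348, adjusted p = 0.0229). The highest value was again that of intact replicate 1, and without it the log2-fold change was -1.07. The count was 4 without intact replicate 1, 1 without intact replicate 4, 2 without dissociated replicates 1 and 2, and 0 without dissociated replicate 3, replicate 4 or both.

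**Figure D4:**
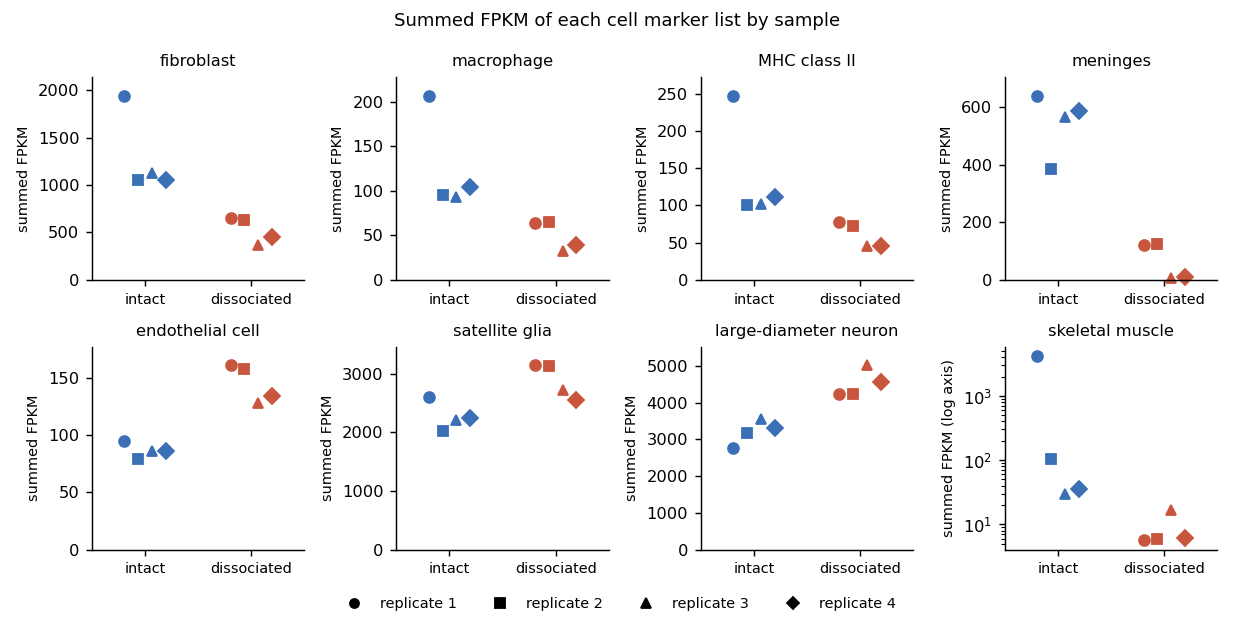
Summed FPKM of cell marker lists in each intact and dissociated library, 1 point per library with marker shape for the replicate number, on a linear axis except for skeletal muscle. Fibroblast, macrophage, MHC class II and meningeal sums lie lower in every dissociated library and lowest in replicates 3 and 4, endothelial and large-diameter neuron sums lie higher, and the muscle sum of intact replicate 1 is 4169 FPKM.

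Among other immune and blood cells, none of 6 tested neutrophil genes, 5 red blood cell rows, 3 mast cell genes or 1 lymphocyte gene was called, with medians of -0.51, -0.75, -1.19 and -0.80. The limma p before adjustment was under 0.05 for 0, 0, 3 and 0 of them. After adjustment it was under 0.05 for 2 mast cell genes, lower but under the level for a call, against 7.96% of all tested genes. Without intact replicate 1 only 2 of the mast cell genes and 0 of the lymphocyte genes were tested. The neutrophil calprotectin gene S100a8 was at 44.2, 53.4, 66.0 and 20.8 FPKM in intact and 43.9, 48.0, 19.4 and 17.2 FPKM in dissociated replicates 1 to 4, and the groups overlapped. Neither the 1 tested proliferation gene (median -0.28, 0 with p under 0.05 before adjustment) nor the 2 spinal cord and central glia genes were called in limma. Gfap, an intermediate filament gene of glia, was at 7.19, 0.884, 1.097 and 3.13 FPKM in intact and 0.159, 0.230, 0.141 and 0.103 FPKM in dissociated replicates 1 to 4. Its groups did not overlap (log2-fold change -3.17, limma adjusted p = 0.0082), but its intact mean of 3.07 FPKM was under the level for a call. Without intact replicate 1 the mean of Gfap was too low for it to be tested. Of 5 cartilage and bone genes (median 0.29), Hapln1, a matrix link protein gene, was called higher at 5.58 ± 1.48 FPKM in intact and 10.0 ± 0.296 FPKM in dissociated DRG (SD, n = 4). 

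Skeletal muscle and adipocyte lists had medians below 0, and the source of these transcripts was not tested. Of 17 tested skeletal muscle genes 8 were called lower, but 8 of the 17 reached a mean of 1 FPKM only with intact replicate 1, and 9 were tested without it, with a median of -3.47 against -4.89 with it. Acta1, skeletal muscle actin, was at 647, 16.4, 3.71 and 3.58 FPKM in intact and 0.264, 0.165, 2.77 and 0.243 FPKM in dissociated replicates 1 to 4 (log2-fold change -5.15, SE 1.57, adjusted p = 0.0444). The groups did not overlap, but intact replicate 1 was far above all others, and without it the log2-fold change was -3.47. The muscle count was 5 of 9 without intact replicate 1, 1 without intact replicate 2, 3 without dissociated replicate 3 and 0 without dissociated replicate 1, 2 or 4. Cfd, the complement factor D gene of adipocytes, was the 1 call of 4 tested adipocyte genes (median -1.59), at 9.39, 6.77, 4.51 and 6.15 FPKM in intact and 0.0779, 0, 0.0815 and 0.172 FPKM in dissociated replicates 1 to 4. H19, an imprinted noncoding RNA gene of muscle and connective tissue, was at 60.3, 14.7, 16.0 and 15.8 FPKM in intact and 5.29, 5.37, 1.81 and 2.00 FPKM in dissociated replicates 1 to 4, lower in all dissociated libraries. 

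Long noncoding RNAs were lower in dissociated DRG. Of 9 nuclear and neuronal long noncoding RNAs 8 were called lower and 0 higher, with a median of -1.66. Meg3, an imprinted RNA of the Dlk1-Dio3 locus (chr12:109540996-109571729), was at 101, 219, 223 and 221 FPKM in intact and 19.5, 19.8, 25.4 and 23.1 FPKM in dissociated replicates 1 to 4 (log2-fold change -3.05, SE 0.249, adjusted p = 0.000531). Malat1, an abundant RNA of nuclear speckles (chr19:5795690-5802671), was at 152, 165, 155 and 173 FPKM in intact and 35.5, 38.8, 43.4 and 41.8 FPKM in dissociated replicates 1 to 4 (log2-fold change -2.02, SE 0.0827, adjusted p = 4.53e-06). Both were lower in every dissociated library, with a narrow range over the 4. Snhg11 was at 113, 231, 217 and 218 FPKM in intact and 28.5, 28.7, 29.9 and 30.4 FPKM in dissociated replicates 1 to 4 (log2-fold change -2.67, SE 0.206, adjusted p = 0.000389). Miat and Neat1, the scaffold of paraspeckles, fell by 2.67 and 1.66 on the log2 scale. Intact replicate 1 was the lowest intact library for Meg3 and Snhg11, and without it the log2-fold change of Meg3 was -3.34. The count was 8 without intact replicate 1 and 7 without dissociated replicates 1 and 2, and 7 without replicates 3 and 4. After sorting, Meg3 was at 75.9 to 275 FPKM and Malat1 at 65.2 to 118 FPKM.

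**Figure D5:**
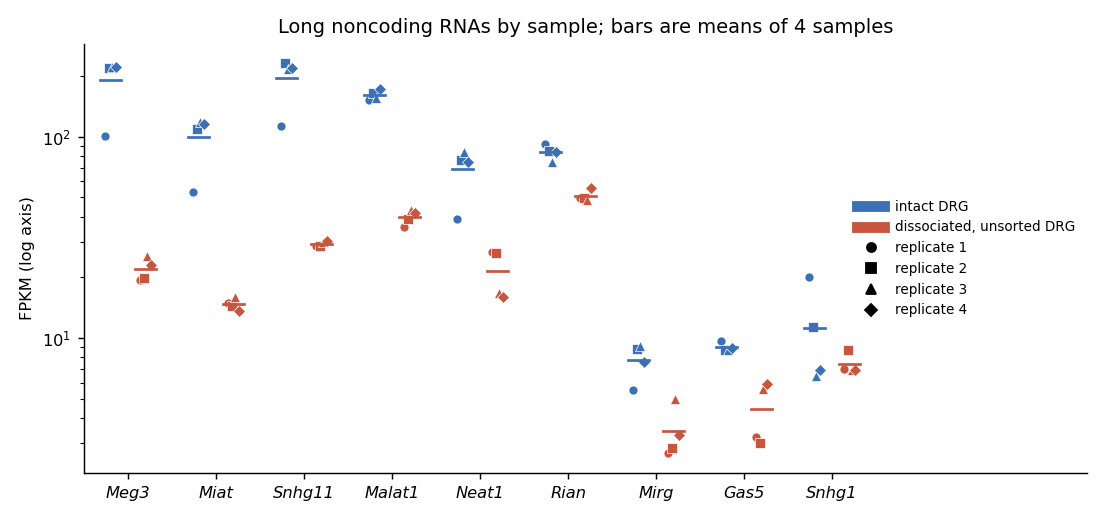
FPKM of 9 long noncoding RNAs in each intact and dissociated library, on a log axis, with marker shape for the replicate number and a bar at the mean of 4 libraries. All but Snhg1 lie lower in every dissociated than in every intact library, with Malat1 at 152 to 173 FPKM in intact and 35.5 to 43.4 FPKM in dissociated DRG.

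No gene of 16 cholesterol synthesis genes was called (median 0.10, limma p before adjustment under 0.05 for 5). By the adjusted p alone 5 were higher, against 14.9% of all tested genes. Hmgcs1, an early enzyme of the pathway, averaged 239.8 and 262 FPKM (limma, adjusted p = 0.235).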

How the data were processed

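The study's methods name TopHat2, SAMtools and Cufflinks 2.1.1 with mm10, and what the authors deposited is 1 FPKM value for each gene and library. No read counts were used, so the spread between samples was the only error. Start positions were raised by 1 to follow genome browsers.

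Values were compared as log2(FPKM + 0.1) with limma 3.58.1 in R 4.3.3 (intensity trend, two-sided, Benjamini-Hochberg adjustment over 11974 rows), in place of the CuffDiff test the authors used. A log2-fold change with its SE is on that scale, which understates changes of low genes, and an n-fold is a ratio of mean FPKM. P-values measure the spread between samples, taken as separate mice or pools of mice. The script was tested on simulated data. Promoters came from RefSeq (GRCm38.p6), and motifs were chosen after the values were seen. Heat shock and AP-1 motifs were searched on both strands.

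Members and gene lists were chosen with earlier results of these data known. Genes were named by a rule: the 10 largest rises and falls among calls without overlap that held without intact replicate 1, up to 5 called members of a list by size of change, or up to 3 of highest level where none was called. Other genes named were chosen after their values were seen. Some named genes are not reported here.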

Additional observations from a re-analysis of the deposited data

Results flagged for a closer look

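A library was singled out in a group of 4 when its distance to the nearest other library exceeded Dixon's 95% limit, as a share of the group's range, which chance passes in about 1 of 20 groups. Of 165 such groups over named genes 33 passed, 27 of them through intact replicate 1, and of 74 groups over list sums 12 passed, 10 of them through intact replicate 1.

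Intact replicate 1 was the highest intact library for the muscle genes Tnni2, Tnnc2, Mylpf and Acta1, at 347, 421, 699.7 and 647 FPKM. It was also the highest for the connective tissue genes Apod, Lum, Dcn and Crabp2 and for H19, at 650.4, 85.1, 518, 16.5 and 60.3 FPKM. The macrophage genes C1qa, C1qb, C1qc and Lyz2 were highest there at 21.9, 21.1, 20.1 and 64.7 FPKM, and the MHC class II genes H2-Aa, H2-Ab1, H2-Eb1 and Cd74 at 60.9, 39.7, 34.0 and 95.8 FPKM. The myelin gene Mbp was highest there too, at 1321 FPKM. So were Stmn2, Nppb and Thyn1, at 843, 45.9 and 30.0 FPKM. It was the lowest intact library for Meg3, Miat and Snhg11, at 101, 52.8 and 113 FPKM, and for Nefm, Kcnc1 and Hsp90b1, at 441, 6.69 and 102 FPKM.

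Among list sums, intact replicate 1 was the highest intact library for skeletal muscle, fibroblast, macrophage, MHC class II and adipocyte genes, at 4169, 1945, 207, 247 and 148 FPKM. The same held for feedback regulators, p53 response, cytokine and peptidergic genes, at 198, 228, 48.3 and 2777 FPKM, and it was the lowest for long noncoding RNAs, at 585 FPKM.

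Among dissociated libraries, replicate 3 was the highest for Tnni2, Mylpf, Acta1 and the muscle sum, at 1.27, 1.28, 2.77 and 16.6 FPKM, and the lowest for Slc2a1, at 21.4 FPKM. Replicate 2 was the highest for Thyn1 at 16.8 FPKM, replicate 1 was the lowest for a row of Tmem254b at 4.72 FPKM, and replicate 4 was the lowest for the sum of the non-peptidergic, pruriceptive and thermal list at 454 FPKM.

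The rows on the Y chromosome, outside the comparison, averaged 13.7, 11.4, 2.48 and 4.12 FPKM for Ddx3y, Eif2s3y, Kdm5d and Uty in dissociated DRG, above every intact library.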

How the results depend on the processing

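Counts of genes called higher and lower in dissociated DRG were 519 and 332. Leaving out 1 replicate at a time gave 367 to 580 higher and 178 to 327 lower, with the fewest lower calls without dissociated replicate 4 (178), replicate 3 (198) and replicate 1 (220). Averaging dissociated replicates 1 and 2, the closest pair, into 1 sample gave 458 higher and 231 lower. Scaling to the same FPKM sum gave 333 higher, the same with skeletal muscle genes removed 335, and leaving out intact replicate 1 with median-ratio size factors 335. A log2 ratio of 1 in place of 0.5 gave 40 higher and 120 lower, and a level of 1 FPKM in place of 5 gave 649 lower. Alternatives chosen after seeing the data left out dissociated replicates 1 and 2 (238 higher, 146 lower) or replicates 3 and 4 (160 higher, 58 lower), which also means fewer samples, or the rows listed at 0 in any of the 8 samples (514 higher, 326 lower). The cause of the other differences was not tested.

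Over 114 named genes and 29 alternatives, 3031 of 3296 comparisons kept the side of the threshold, 252 fell short of it and 13 passed it newly. A change of direction was counted as a reversal only where the adjusted p passed, and 0 were counted. The 3031 can therefore include changes of direction short of the threshold. Hsp90b1, called in neither fit, had a log2-fold change of 0.0021 with all 8 libraries and -0.061 without intact replicate 1. Of 2146 comparisons of list counts 2017 stayed within 1.5 times and 129 did not, with counts of 0 in both fits placed among the former. With the replicate block, 529 genes were called higher and 351 lower, but the replicate numbers did not pair the samples: the correlations of same-numbered deviations were 0.011, -0.164, 0.064 and -0.061.

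The limits are those of the design. The groups differ in sex as well as in preparation, no counts were used so that depth sets no interval, and 4 samples a group bound the smallest exact p at 0.0286.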

Other observations

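A list of 55 splicing and nuclear speckle factors, written after the values were seen, held 18 genes called lower and 0 higher, with a median log2-fold change of -0.37. Over all tested genes 2.77% were called lower, with a median of 0.015. Without intact replicate 1, 22 were called lower. Leng8 averaged 34.4 and 7.10 FPKM, the splicing kinase gene Clk4 16.5 and 8.82 FPKM and Pnisr 15.2 and 7.36 FPKM in intact and dissociated DRG. The list summed to 1337, 1638, 1608 and 1589 FPKM in intact and 1208, 1202, 1176 and 1238 FPKM in dissociated replicates 1 to 4.

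Of 70 tested rows of cytosolic ribosomal protein genes, also gathered after the values were seen, 16 were called lower and 0 higher, with a median of -0.57. The share called lower over all tested genes was 2.77% and the median 0.015. Without intact replicate 1, 15 of 68 tested were called lower, with a median of -0.33. The 70 rows summed to 4960, 2416, 2631 and 2847 FPKM in intact and 2050, 2068, 2042 and 1924 FPKM in dissociated replicates 1 to 4, so that intact replicate 1 stood apart. Ribosomal protein genes have many near-identical processed copies, and their values are uncertain.

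When MACS-sorted replicate 3 was set with the dissociated libraries, 7 tested rows separated these 5 libraries from the other 7 by over 0.5 on the log2 scale. Among them were Efcab7, Scn2b, Supt16, Tmem181b-ps, Tmem254b and Wdfy1. With MACS-sorted replicate 1, 2 or 4 in that place the counts were 1, 0 and 2. Scn2b, a sodium channel beta subunit gene, was at 33.1 to 35.9 FPKM in intact, 15.1 to 16.8 FPKM in dissociated and 50.1, 60.3, 18.8 and 43.9 FPKM in MACS-sorted replicates 1 to 4.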
